A study of Sus scrofa with 12 samples.

Results

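Oxidative phosphorylation subunits are the nuclear-encoded proteins that build the respiratory chain and the ATP synthase of mitochondria. Their genes were taken from the deposited table of coding genes by name: symbols beginning with NDUF, UQCR, ATP5 or COX followed by a digit from 4 to 8, and SDHA, SDHB, SDHC and SDHD, in upper or mixed case. This rule found 80 of the 21674 genes in the table, of which 78 carry an NCBI gene identifier and 2 are genes assembled from the reads that were given the symbols Cox6b1 and NDUFA1. The rule also takes in 8 NDUFAF genes and ATP5SL, which code for assembly factors and not for subunits, and they are counted as members. The table names a further 16 subunit genes only in its description column, among them the testis isoforms COX6B2, COX7B2 and COX8C, and these were identified after the data were seen and are counted apart.

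Testes were taken by castration from boars of the Hezuo (HZ) and Landrace (LC) breeds, kept under the same conditions by one breeding company. The groups were HZ boars at 30 days (Ha) and at 120 days (Hb) and LC boars at 30 days (La) and at 120 days (Lb), with 3 libraries of whole-testis RNA in each. The age comparisons ask what differs between the immature and the maturing testis in each breed, and the breed comparisons ask what differs at one age between the breeds. The estimated counts of a library came to 17165519 in the smallest (Hb3) and 23758931 in the largest (Ha1).

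Complex I takes electrons from NADH and complex II takes them from succinate, complex III passes them to cytochrome c, complex IV reduces oxygen with them, and complex V, the ATP synthase, uses the resulting proton gradient to make ATP. Several subunits of complex IV exist as a common isoform and as an isoform restricted to tissues such as muscle, lung or testis. Germ cells are known to change their mitochondria and their isoforms during meiosis and sperm formation, and steroid-making Leydig cells are rich in mitochondria.

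The labelled tissue was checked against markers of testis cells. In counts per 1e+06 counts of a library, scaled between libraries (CPM), the Sertoli cell gene INHA averaged 511 in Ha and 1455 in La, and the Leydig cell gene CYP17A1 averaged 3548 and 5484. The germ cell gene DDX4 was at 20.6 CPM in Ha and 13.1 in La, and at 569.8 in Hb and 391 in Lb. PRM1, which packs the DNA of spermatids, was near 0 at 30 days and averaged 2415 CPM in Hb and 1198 in Lb. The libraries of Hb stand apart from each other in their Leydig cell genes, whose summed CPM was 4065, 331 and 268 in Hb. Each result below that rests on 1 library is therefore given with and without it.

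A gene is called where its adjusted p is under 0.05 and its absolute log2 fold change is over 1. The p comes from edgeR's quasi-likelihood test on counts, with Benjamini-Hochberg adjustment over all genes tested, and it rests on the spread between libraries and on edgeR's model of variance across genes. An exact permutation test of 3 libraries against 3 cannot give a p below 0.1, so no gene was tested that way alone. Fold changes are the second group over the first, so a positive value in Ha vs Hb or La vs Lb is higher at 120 days, and a positive value in Ha vs La or Hb vs Lb is higher in LC. Levels of different genes are ranked only in FPKM, fragments per kilobase of transcript and per 1e+06 mapped fragments.

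With age, the members moved in both directions and not as a block. In HZ testis, 12 of the 78 members tested in Ha vs Hb were called higher at 120 days and 13 lower, where 28.2% of all 16548 genes tested were called higher and 23.2% lower. By the adjusted p alone, 18 members were higher and 28 lower, against 35.9% and 33% of all genes. In LC testis, 19 of the 78 members tested in La vs Lb were called higher and 4 lower, where 27.5% of 16637 genes were called higher and 20.1% lower. By the adjusted p alone, 33 members were higher and 17 lower there, against 36.9% and 33% of all genes. The median log2 fold change of the members was 0.01 in HZ and 0.26 in LC, beside −0.02 and 0.01 for all genes tested. With the NDUFAF genes and ATP5SL left out, a choice made after seeing the data, 9 of 70 tested were called higher and 11 lower in HZ and 16 higher and 4 lower in LC, with medians of −0.02 and 0.26. Counts of called genes within a complex below are to be read beside the same shares of all genes. In these whole-tissue libraries, fewer cells of a type and less RNA per cell cannot be told apart.

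These age comparisons share no library. All 12 members called higher in Ha vs Hb were among the 19 called higher in La vs Lb, which is 100% of the first list and 63.2% of the second, where 81.3% and 82.9% of all genes called higher were shared. Of the members called lower, 4 were on both lists (ATP5G3, COX7A1, NDUFB11 and SDHD), which is 30.8% of the 13 in HZ and 100% of the 4 in LC, where 64.8% and 74.3% of all genes called lower were shared. By the adjusted p alone, ATP5H, a stalk subunit of the ATP synthase, was the 1 member past the threshold in opposite directions, at −0.27 (adjusted p 0.0495) in Ha vs Hb and 0.26 (adjusted p 0.0444) in La vs Lb. Its direction in LC depends on the measure. The mean FPKM of ATP5H was lower at 120 days in both breeds, at 156.2 in Ha and 92.4 in Hb. In LC it was 122.3 in La and 118.6 in Lb, with overlapping libraries.

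The balance between higher and lower depends on how libraries are scaled. Without TMM, edgeR's correction for composition, the median of all genes moved to −0.32 in HZ and −0.16 in LC, with upper-quartile factors to −0.34 and −0.25, and on deposited FPKM plus 1 in limma to −0.28 and −0.16. With 0.1 in place of 1 it moved to −0.47 and −0.27. In Ha vs Hb the members called higher and lower were then 10 and 18 without TMM, 10 and 19 with upper-quartile factors and 9 and 23 in both limma fits, and the median of the members turned to −0.29 without TMM, −0.30 with upper-quartile factors and −0.45 and −0.47 in limma. In La vs Lb they were 15 and 6 without TMM, 13 and 10 with upper-quartile factors, and 10 and 10 or 10 and 12 in limma, and the median of the members was 0.09 without TMM and turned to just under 0 with upper-quartile factors (−0.00) and to −0.03 in both limma fits. Relative to the median of all genes, the median of the members stood 0.03 higher in Ha vs Hb and 0.25 higher in La vs Lb, 0.03 and 0.25 higher also without TMM, −0.17 and 0.13 on FPKM plus 1 in limma, where the sign turns in HZ, and 0.01 and 0.24 on FPKM plus 0.1. With a library left out, the HZ value ran from −0.02 (without Ha3) to 0.08 (without Hb2) and the LC value from 0.16 (without La3) to 0.24 (without Lb2).

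**Figure D1:**
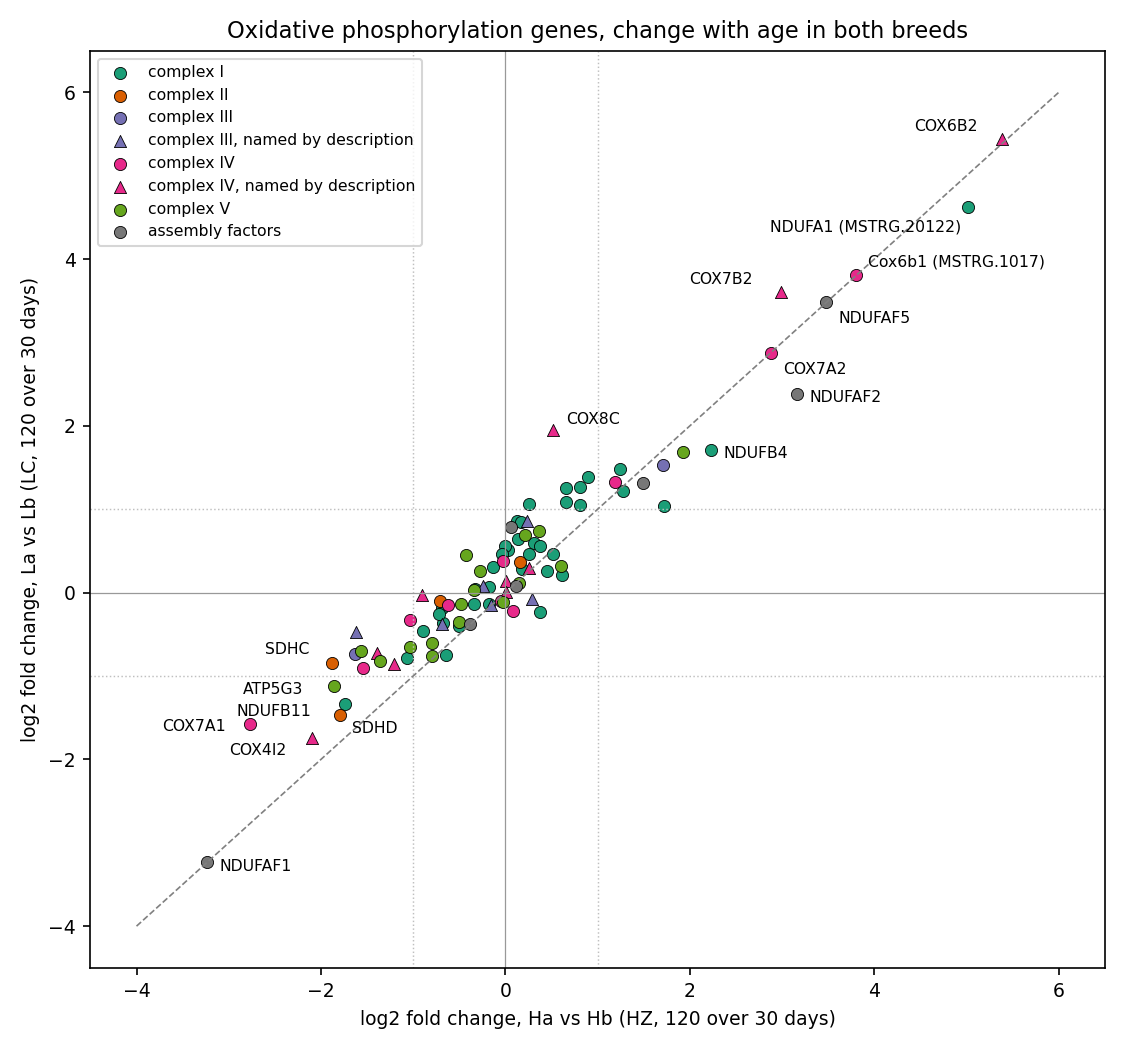
Log2 fold change with age of each subunit gene in HZ testis (x axis, Ha vs Hb) and LC testis (y axis, La vs Lb), each point 1 gene coloured by complex, triangles for genes named only by description, dotted lines at −1 and 1, the dashed line marking equal change. COX6B2 lies at 5.39 and 5.44 and COX7A2 at 2.88 and 2.88, while SDHC and ATP5G3 lie at −1.88 and −1.86 on the x axis.

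Complex I is the largest group, with 38 members. Its median log2 fold change was 0.17 in HZ, which turned to −0.13 without TMM, −0.14 with upper-quartile factors and −0.30 and −0.31 in limma. Relative to all genes this HZ median stood 0.19 higher, and at −0.03 on FPKM plus 1 in limma. In LC the median was 0.46, where the same settings gave 0.30 and 0.20, and limma 0.13 and 0.15. The 7 core subunits of complex I, which carry the electron path, had no member called in Ha vs Hb and 1 called higher in La vs Lb. Their median log2 fold change was −0.33 in Ha vs Hb. It moved to −0.64 both without TMM and with upper-quartile factors, and to −0.80 and −0.82 in limma. In La vs Lb it was 0.04, falling to −0.13 without TMM and −0.22 with upper-quartile factors and staying below 0 in limma. The 31 accessory subunits of complex I, which surround the core, had 5 called higher (16.1%) and 2 lower (6.45%) in Ha vs Hb, both under the share of all genes. In La vs Lb these subunits had 10 higher (32.3%) and 1 lower (3.23%), where all genes had 27.5% and 20.1%. Their median was 0.26 in Ha vs Hb, where it turned to −0.05 without TMM and −0.06 with upper-quartile factors and to −0.23 in limma, and 0.55 in La vs Lb, where the same settings gave 0.38, 0.29 and 0.24. Relative to all genes, the accessory median was 0.28 and 0.54 higher in the same comparisons (0.05 and 0.40 on FPKM plus 1 in limma), and the core median of Ha vs Hb stood at −0.31 (−0.53 in that fit).

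NDUFB4, an accessory subunit of the membrane arm (NCBI gene 100624335, chromosome 13, 139724145 to 139730492), was at a CPM of 6.48, 6.18 and 5.51 in Ha, 28.3, 23.3 and 33.5 in Hb, 9.46, 7.48 and 6.04 in La and 23.5, 24.9 and 26 in Lb. Every library at 120 days was above every library at 30 days in both breeds. Its fold change was 4.68 in Ha vs Hb (log2 2.23, SE 0.20, adjusted p 7e-05) and 3.27 in La vs Lb (log2 1.71, SE 0.20, adjusted p 9e-05). NDUFA10, another accessory subunit, was at a CPM of 88.5, 88.9 and 87.3 in Ha, 395, 269 and 208 in Hb, 78.8, 79.3 and 72.2 in La and 159, 124 and 183 in Lb. It was high in both groups at 120 days, and the ages did not overlap in either breed. The log2 fold change was 1.72 in Ha vs Hb (adjusted p 0.000471) and 1.04 in La vs Lb (adjusted p 0.000411), and the second was 0.99 without La3 and 0.89 without Lb3, 0.87 without TMM, 0.77 with upper-quartile factors and 0.69 and 0.70 in limma, all short of a call.

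Also called higher in both breeds were the membrane-arm subunits NDUFA11 (log2 1.24 and 1.49) and NDUFB3 (1.28 and 1.22). Both stayed under 1 in Ha vs Hb without TMM, at 0.93 and 0.97, and with upper-quartile factors and in limma, and NDUFB3 did so in La vs Lb with upper-quartile factors (0.96) and in limma (0.87 and 0.90). Called higher in LC alone were the core subunit NDUFS3 (log2 1.39) and the accessory subunits NDUFB8 (1.27), NDUFB9 (1.25), NDUFA3 (1.08), NDUFB7 (1.06) and NDUFA12 (1.05). In HZ the same genes gave 0.89, 0.81, 0.66, 0.66, 0.26 and 0.81, and the difference between the breeds did not pass its own test for any of these 6. The calls of NDUFA3, NDUFB7 and NDUFA12 each end when 1 library is left out, and also without TMM (0.92, 0.89 and 0.88), with upper-quartile factors and in limma. That of NDUFB9 ends with upper-quartile factors (0.99) and in limma (0.92 and 0.93), and that of NDUFB8 in limma (0.94 and 0.96). NDUFA3 was at 0.97 without La1 and 0.91 without Lb3, and NDUFA12 at 0.995 without La1 and 0.99 without La3. NDUFB7 was at 0.998 without La2, 0.91 without La3 and 0.93 without Lb2.

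Chromosome X carries 2 members, both accessory subunits of complex I. NDUFB11, which sits in the membrane arm (NCBI gene 100522775, chromosome X, 41770929 to 41773879), was at a CPM of 41.2, 40.9 and 38 in Ha, 12.7, 10.9 and 12.4 in Hb, 60.1, 45.2 and 42.7 in La and 17.5, 24.2 and 16.4 in Lb. Its levels were lower at 120 days in every library of both breeds. It was called lower, 3.33-fold in Ha vs Hb (log2 −1.74, SE 0.15, adjusted p 6e-05) and 2.52-fold in La vs Lb (log2 −1.33, SE 0.19, adjusted p 0.000361). The other is NDUFA1, a membrane anchor (NCBI gene 100515069, chromosome X, 98219717 to 98223873), with a CPM of 6.33, 7.51 and 6.83 in Ha, 4.17, 5.62 and 4.75 in Hb, 5.81, 7.33 and 6.99 in La and 4.72, 5.08 and 5.23 in Lb. Its libraries did not overlap between ages in either breed, and its log2 fold changes of −0.51 (adjusted p 0.0877) and −0.40 (adjusted p 0.115) did not pass the threshold.

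The assembled gene that carries the symbol NDUFA1 (MSTRG.20122) went the other way. Its estimated counts were 0, 3 and 4 in Ha, 42, 47 and 73 in Hb, 3, 1 and 1 in La and 27, 42 and 49 in Lb. It was near 0 at 30 days and present in all libraries at 120 days. All of La lay at or under 3 counts, taken as the floor of detection in each library, so in La vs Lb it was at least 14.4-fold higher (adjusted p 0.000136), and in Ha vs Hb the fitted log2 value of 5.01 (adjusted p 0.00108) rests on the few counts in Ha. It is uncertain whether it is a copy of NDUFA1 elsewhere in the genome, and the files give it no position that was used here.

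One further accessory subunit, the zinc-binding NDUFS6, was called lower in HZ, at −1.06 (adjusted p 0.00114), and at −0.99 without Ha2 the call ends. In LC it was −0.78 (adjusted p 0.00765). Of the other complex I members, those that passed the adjusted p alone in Ha vs Hb include NDUFA12, NDUFB10, NDUFB8, NDUFB9 and NDUFS3 as higher and NDUFC1, NDUFC2, NDUFS1, NDUFS5, NDUFS8 and NDUFV1 as lower. In La vs Lb, 9 did so as higher (NDUFA2, NDUFA7, NDUFA9, NDUFB1, NDUFB2, NDUFB5, NDUFB6, NDUFS7 and NDUFV2) and 3 as lower (NDUFC1, NDUFS6 and NDUFS8). NDUFS5, the complex I member with the highest mean FPKM over all 12 libraries, held 7.27% of the complex's summed FPKM in Ha, 4.9% in Hb, 8.23% in La and 5.43% in Lb, and NDUFS3, higher than it at 120 days, 5.05%, 7.91%, 4.48% and 8.44%. Passing in neither breed were NDUFA1, NDUFA13, NDUFA5, NDUFA6, NDUFA8, NDUFAB1, NDUFS4 and NDUFV3.

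The NDUFAF genes code for assembly factors, which build complex I without staying in it, and 7 of their 8 were tested. In Ha vs Hb, 3 were called higher and 1 lower, and in La vs Lb 3 higher and none lower. Their median log2 fold change was 0.11 in Ha vs Hb, where it turned to −0.20 without TMM and −0.21 with upper-quartile factors, and 0.78 in La vs Lb, where these gave 0.61 and 0.52. With no count filter the medians were 0.65 and 0.44, and in limma −0.21 and −0.35 in HZ and 0.45 and 0.47 in LC. NDUFAF5, which hydroxylates an arginine of the core subunit NDUFS7 (NCBI gene 100520522, chromosome 17, 22480344 to 22508804), was at a CPM of 4.57, 4.06 and 5.43 in Ha, 50.2, 41.8 and 64.8 in Hb, 3.48, 3.21 and 4.21 in La and 44.8, 37.5 and 38.9 in Lb. The lowest library at 120 days was several times the highest at 30 days in each breed. It rose in HZ (log2 3.48, SE 0.23, adjusted p 2e-05) and in LC (log2 3.48, SE 0.17, adjusted p 6e-07).

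NDUFAF2, a chaperone of late assembly, was at a CPM of 0.537, 0.723 and 0.582 in Ha, 5.33, 4.32 and 6.99 in Hb, 1.1, 0.904 and 0.596 in La and 3.75, 4.47 and 5.23 in Lb. Again the ages did not overlap within a breed. Its log2 fold change was 3.16 in Ha vs Hb (adjusted p 0.000185) and 2.38 in La vs Lb (adjusted p 0.000309). NDUFAF7, a protein methyltransferase needed for assembly, rose by 1.49 and 1.31 on the log2 scale, calls that end in limma at 0.78 and 0.94 in HZ and 0.78 and 0.97 in LC. NDUFAF1, part of the assembly complex of the membrane arm, varied widely, with a CPM of 45, 44.7 and 4.66 in Ha, 1.33, 6.78 and 1.71 in Hb, 39.6, 2.66 and 15.8 in La and 6.06, 0 and 0 in Lb. Ha3 lay below Hb2, so the groups overlap, and 2 libraries of Lb were at 0. Its call in Ha vs Hb (log2 −3.24, SE 0.94, adjusted p 0.0173) is lost without Hb1 (−2.85), without Hb3 (−2.94) and when all 12 libraries are fitted together (−3.23), and in La vs Lb the adjusted p was 0.0737. NDUFAF3, with the highest mean FPKM of them over all 12 libraries (at 120 days NDUFAF5 was higher), gave 0.07 (adjusted p 0.714) in HZ and 0.78 (adjusted p 0.00338) in LC, and NDUFAF4 and NDUFAF6 passed in neither.

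**Figure D2:**
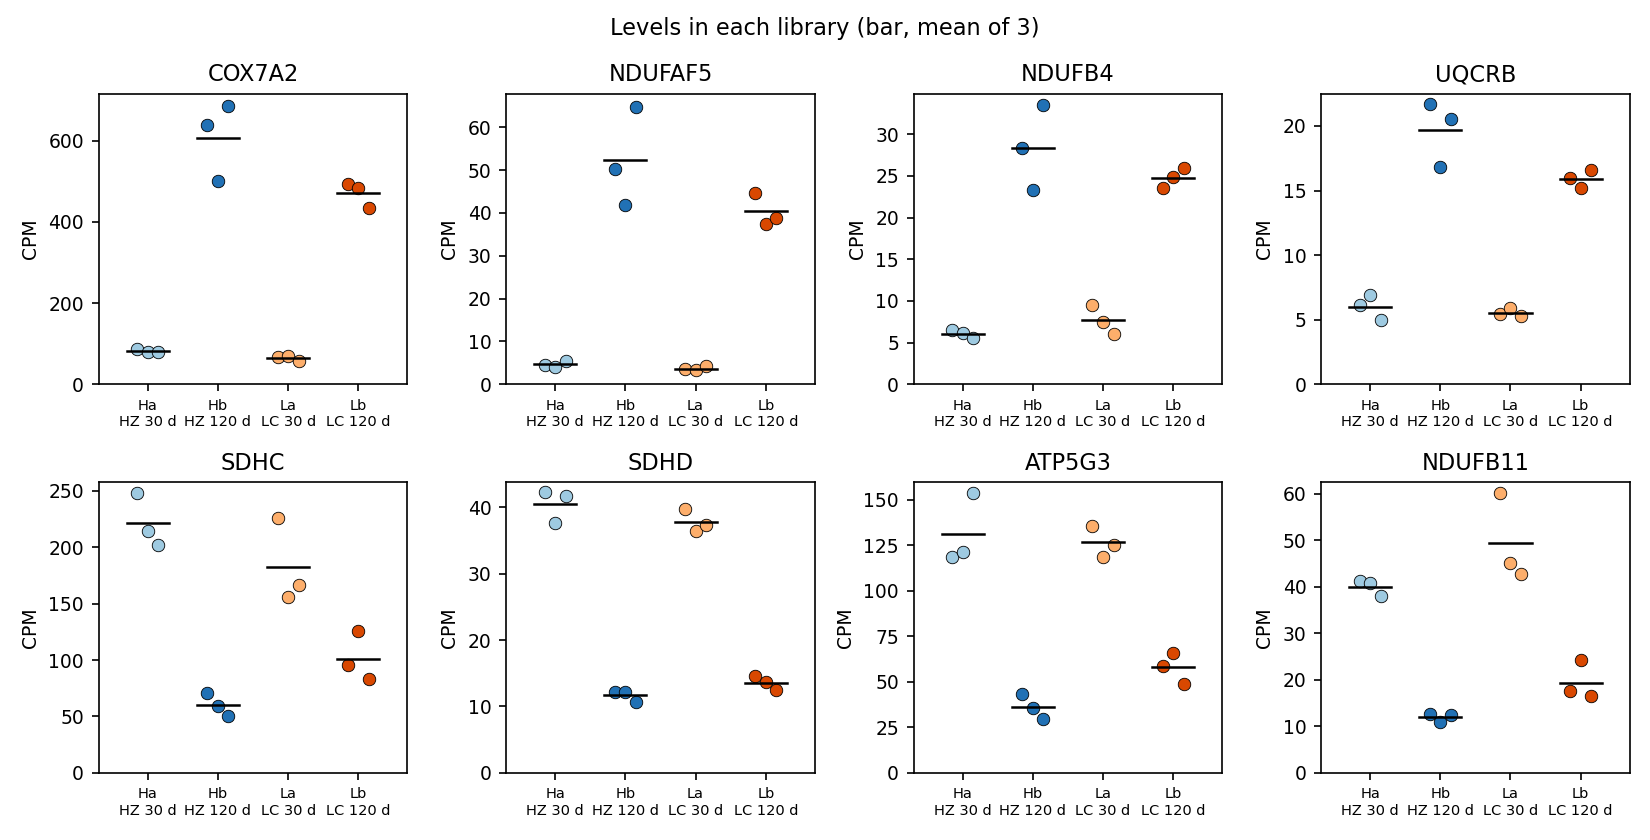
CPM in each library (points) and the mean of 3 (bars) for 4 genes that rose and 4 that fell with age in HZ testis, on linear axes from 0. COX7A2 lies between 58.2 and 87.3 at 30 days and between 435 and 685 at 120 days, and SDHC between 156 and 248 at 30 days and between 50.5 and 125 at 120 days.

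Complex II, succinate dehydrogenase, has 4 subunits and is shared with the tricarboxylic acid cycle. In HZ 2 were called lower at 120 days and none higher. By the adjusted p alone 3 were lower, and SDHB, at 0.16, did not pass. The median log2 fold change was −1.25, and under every scaling tried this median stayed below 0. In LC 1 was called lower and none higher, with a median of −0.47, which moved to −0.64 without TMM, −0.73 with upper-quartile factors and −0.77 and −0.78 in limma. SDHC, a membrane anchor (NCBI gene 100524676, chromosome 4, 89135410 to 89169164), was at a CPM of 248, 214 and 202 in Ha, 70.6, 59.2 and 50.5 in Hb, 226, 156 and 167 in La and 95.4, 125 and 82.9 in Lb. Every library of Hb was below every library of Ha, and every library of Lb below every library of La. It fell 3.68-fold in Ha vs Hb (log2 −1.88, SE 0.16, adjusted p 6e-05). In La vs Lb its log2 fold change was −0.84 (SE 0.19, adjusted p 0.00386), and it becomes a call without Lb2 (−1.02), without TMM (−1.01), with upper-quartile factors (−1.10) and in limma (−1.14 and −1.15).

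SDHD, the other membrane anchor (NCBI gene 100048954, chromosome 9, 39790654 to 39803602), was at a CPM of 42.2, 37.7 and 41.7 in Ha, 12.1, 12.2 and 10.7 in Hb, 39.7, 36.5 and 37.3 in La and 14.6, 13.7 and 12.4 in Lb. It was low in all 6 libraries at 120 days. It fell 3.48-fold in HZ (log2 −1.80, SE 0.15, adjusted p 5e-05) and 2.76-fold in LC (log2 −1.46, SE 0.13, adjusted p 2e-05). The catalytic subunits had smaller log2 fold changes. SDHA, the flavoprotein, was at a CPM of 548, 499.7 and 513 in Ha, 357, 303 and 295 in Hb, 424, 364 and 385 in La and 349, 436 and 300.4 in Lb, and its log2 fold change was −0.71 (adjusted p 0.00204) in HZ and −0.10 (adjusted p 0.552) in LC. In HZ it becomes a call without TMM (−1.02), with upper-quartile factors (−1.03) and in limma (−1.19 and −1.20). SDHB, the iron-sulfur protein, was at a CPM of 62.8, 68.1 and 56 in Ha, 75.5, 63.5 and 69.6 in Hb, 54, 48.9 and 48.9 in La and 66, 65.5 and 61.9 in Lb, with 0.16 (adjusted p 0.313) and 0.36 (adjusted p 0.0127). In Hb the levels of SDHA were below all of Ha, while those of SDHB overlapped. The share of SDHC in the summed FPKM of the complex was 34.7, 32.6 and 31.6 in Ha, 17.3, 17 and 14.7 in Hb, 37.3, 31.7 and 32.4 in La and 22.8, 25.3 and 22.5 in Lb in percent, lower at 120 days in every library, and SDHA held 43.6% in Ha and 49% in Hb.

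Complex III is represented by 2 members that went opposite ways, UQCRB and UQCR10, both small subunits without a redox centre. UQCRB (NCBI gene 100157621, chromosome 4, 40403272 to 40409080) was at a CPM of 6.14, 6.91 and 4.97 in Ha, 21.7, 16.8 and 20.5 in Hb, 5.43, 5.93 and 5.28 in La and 16, 15.2 and 16.6 in Lb. All libraries at 120 days were above all at 30 days. It rose 3.28-fold in HZ (log2 1.71, SE 0.21, adjusted p 0.000287) and 2.9-fold in LC (log2 1.54, adjusted p 7e-05). UQCR10 (NCBI gene 100155687, chromosome 14, 46783340 to 46786140) was at a CPM of 118, 134 and 120.3 in Ha, 53, 37.6 and 29.6 in Hb, 80.8, 73 and 66.5 in La and 49.2, 45.8 and 36.4 in Lb. It was highest in Ha and next in La, and Hb and Lb overlapped below both. Its fall was 3.09-fold in HZ (log2 −1.63, adjusted p 0.000445), and in LC its log2 fold change was −0.73 (adjusted p 0.00161), a call in limma (−1.04 and −1.05). UQCR10 held 95.9, 95.9 and 96.7 in Ha, 74.6, 72.8 and 63.4 in Hb, 94.8, 93.7 and 93.8 in La and 78.8, 78.5 and 72.6 in Lb, in percent of the summed FPKM of this pair.

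Of the 6 complex III genes named only by description, 1 was called in either age comparison: UQCR11, a small subunit, lower in HZ (log2 −1.62, adjusted p 0.00116) and at −0.47 (adjusted p 0.0623) in LC. The core protein UQCRC1 was at a CPM of 376, 335 and 349.5 in Ha, 442, 373 and 432 in Hb, 244, 229 and 226 in La and 397, 469 and 387 in Lb. It was lowest in La, and its log2 fold change with age was 0.23 (adjusted p 0.134) in HZ and 0.86 (adjusted p 0.000137) in LC. UQCRFS1, the Rieske iron-sulfur protein, gave −0.68 (adjusted p 0.001) and −0.37 (adjusted p 0.00976), and UQCRC2, UQCRH and UQCRQ passed in neither breed.

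Complex IV has 11 members by the rule, of which 10 were tested. In Ha vs Hb 2 were called higher and 3 lower, with a median log2 fold change of −0.04 that turned to 0.01 with DESeq2's size factors and moved to −0.34 without TMM, −0.35 with upper-quartile factors and −0.52 and −0.53 in limma. In La vs Lb 3 were called higher and 1 lower, with a median of −0.12 that the same settings took to −0.10, −0.29, −0.38, −0.44 and −0.44. COX7A2, the widely expressed form of a small subunit (NCBI gene 100038000, chromosome 1, 90696746 to 90703407), was at a CPM of 87.3, 80.6 and 80.4 in Ha, 638, 499.7 and 685 in Hb, 67.3, 69 and 58.2 in La and 494, 483 and 435 in Lb. All 6 libraries at 120 days were far above all 6 at 30 days. It rose 7.34-fold in HZ (log2 2.88, SE 0.16, adjusted p 9e-06) and 7.35-fold in LC (log2 2.88, SE 0.11, adjusted p 2e-07). Of the summed FPKM of the 11 members it held, in percent, 23.4, 22.1 and 21.4 in Ha, 77, 69.9 and 75.1 in Hb, 18.7, 19.6 and 18.7 in La and 70.1, 65.3 and 64.4 in Lb. At 120 days it thus made up more of that sum than the other 10 members together, in every library.

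COX7A1, the heart and skeletal muscle form of the same subunit (NCBI gene 399685, chromosome 6, 45519225 to 45520721), was at a CPM of 7.48, 7.47 and 7.26 in Ha, 1.22, 1.39 and 0.593 in Hb, 8.27, 8.04 and 6.91 in La and 2.08, 3.91 and 1.69 in Lb. The ages did not overlap, and Hb1 and Hb2 were the higher libraries of Hb. It fell 6.84-fold in HZ (log2 −2.77, SE 0.36, adjusted p 0.000388) and 2.99-fold in LC (log2 −1.58, SE 0.33, adjusted p 0.00264). NDUFA4, a subunit of complex IV in spite of its symbol (NCBI gene 100579141, chromosome 9, 80637005 to 80644067), was at a CPM of 76.8, 78.1 and 69.5 in Ha, 23, 27.3 and 26.7 in Hb, 72.6, 65.6 and 69.4 in La and 32.3, 38.7 and 38.5 in Lb. Both groups at 120 days were below both at 30 days. Its log2 fold change was −1.54 in HZ (SE 0.13, adjusted p 5e-05) and −0.91 in LC (SE 0.12, adjusted p 0.000229), the second a call without TMM (−1.07), with upper-quartile factors (−1.17) and in limma (−1.21 and −1.22). Its paralog NDUFA4L2, known to be induced by low oxygen, was at a CPM of 2.07, 1.37 and 1.9 in Ha, 6.61, 1.95 and 3.63 in Hb, 1.82, 1.81 and 0.954 in La and 3.84, 4.24 and 3.34 in Lb. It was low throughout, and called higher in LC (log2 1.33, adjusted p 0.0067), a call that ends in limma (0.53 and 0.95), while in HZ 1.19 had an adjusted p of 0.0612, which becomes a call without Hb2 (1.49), with DESeq2 (1.24) or with all 12 libraries fitted together (1.18). Its mean FPKM was 1.2 in Ha and 1.23 in Hb.

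COX6B, the common form of a subunit facing the intermembrane space (NCBI gene 100038022, chromosome 6, 45091829 to 45102785), was at a CPM of 42.2, 38 and 39 in Ha, 14.3, 23.7 and 20.2 in Hb, 36, 34.2 and 31.8 in La and 24.1, 29.6 and 26.3 in Lb. Hb was the lowest group, with no overlap between ages in either breed. It was called lower in HZ at −1.04 (SE 0.20, adjusted p 0.00286), a value that lies at −0.99 without Ha1, −0.85 without Hb1 and −0.99 with DESeq2, all short of a call, and in LC it was −0.33 (adjusted p 0.049). Its testis isoform COX6B2, named only by description (NCBI gene 110261055, chromosome 6, 59530419 to 59531770), was at a CPM of 1.38, 1.41 and 1.2 in Ha, 58.4, 42.8 and 66.3 in Hb, 0.848, 0.603 and 0.517 in La and 27.1, 23 and 35 in Lb. It was close to 0 in all libraries at 30 days and well expressed in all at 120 days. The rise was 41.8-fold in HZ (log2 5.39, SE 0.24, adjusted p 4e-06) and 43.5-fold in LC (log2 5.44, SE 0.29, adjusted p 9e-07). The assembled gene with the symbol Cox6b1 (MSTRG.1017) was at a CPM of 1.04, 0.402 and 0.776 in Ha, 9.5, 7.8 and 13.8 in Hb, 1.27, 1.05 and 0.834 in La and 17, 11.7 and 15.3 in Lb. It too was high only at 120 days, with log2 fold changes of 3.80 (adjusted p 0.000204) and 3.81 (adjusted p 5e-06), and it is uncertain whether it shares reads with COX6B or another close copy.

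Of the remaining complex IV members, COX6A1, the common form of its subunit, was lower in HZ by the adjusted p alone (−0.62, adjusted p 0.0141) and at −0.15 (adjusted p 0.494) in LC, the first a call in limma (−1.09 and −1.11). COX5B, COX6C and COX7C passed in neither breed, with log2 fold changes from −0.22 to 0.38. Of the 10 complex IV genes named by description, COX4I2, an isoform known from lung and low oxygen, was called lower in both breeds (−2.10 and −1.75), and COX7B2, a testis isoform, was called higher in both (2.99 and 3.60), calls that end on FPKM plus 1 in limma (0.94 and 0.83). COX7B, the common form, which lies on chromosome X, was called lower in HZ (−1.39, adjusted p 0.000316) and was −0.72 (adjusted p 0.000575) in LC, where limma gives a call (−1.02 and −1.03). COX6A2, the muscle form, was called lower in HZ (−1.21, adjusted p 0.00479) and was −0.85 (adjusted p 0.0107) in LC, where it is a call without TMM (−1.02), with upper-quartile factors (−1.11) and in limma (−1.01 and −1.25). COX4I1, COX5A and COX7A2L passed in neither.

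COX8C, the testis form of the smallest subunit (NCBI gene 100157935, chromosome 7, 114727841 to 114729102), was at a CPM of 16.6, 16.3 and 10.6 in Ha, 21.8, 19.4 and 21.3 in Hb, 5.51, 6.18 and 4.97 in La and 22.5, 20 and 21.1 in Lb. La was the lowest group, and the other 3 lay closer together. It was called higher with age in LC (log2 1.95, SE 0.17, adjusted p 2e-05), and in HZ it was 0.52 (SE 0.21, adjusted p 0.0575). Its common partner COX8A was at a CPM of 80.8, 88.9 and 86.3 in Ha, 43.4, 44.9 and 48.5 in Hb, 72.3, 65.9 and 65.1 in La and 54.4, 79.4 and 62.9 in Lb. Hb was its lowest group, with −0.90 (adjusted p 0.000341) in HZ and −0.03 (adjusted p 0.854) in LC, and the first becomes a call without TMM (−1.21), with upper-quartile factors (−1.22) and in limma (−1.38 and −1.39).

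Isoform use was measured as the share of the restricted isoform in the summed FPKM of its isoforms in a library, which does not depend on the scaling of libraries. The change with age was tested for 8 sets with an exact two-sided permutation test of the ages within each breed over 400 arrangements, whose smallest possible p is 0.005, and adjusted over the 8 sets. COX6B2 made up 3.14, 3.53 and 2.94 in Ha, 80.2, 64.2 and 76.4 in Hb, 2.32, 1.72 and 1.6 in La and 52.8, 43.5 and 57 in Lb, in percent of COX6B2 and COX6B. At 120 days it was the more abundant of this pair in 5 of 6 libraries. The mean difference between the ages was 59.8 percentage points (exact permutation p 0.005, the smallest possible, adjusted p 0.00667, higher in 6 of 6 libraries). The pair leaves out the assembled Cox6b1, at an FPKM of 6.02, 5.7 and 9.25 in Hb and 12.4, 8.55 and 12.5 in Lb. In FPKM, COX6B2 and COX6B were at 26.1 and 23.3 in Lb1 and at 37.25 and 28.1 in Lb3. With Cox6b1 added to COX6B, COX6B2 would stay the more abundant form in every library of Hb but not in any of Lb. COX8C made up 15.5, 14 and 9.88 in Ha, 30.9, 27.8 and 28.1 in Hb, 6.35, 7.7 and 6.36 in La and 26.9, 18.4 and 23 in Lb, in percent of COX8C and COX8A, a difference of 15.9 points with the same p, and every library at 120 days was above every library at 30 days. In HZ the FPKM of COX8C itself overlapped between ages, at 22.4, 22 and 14.3 in Ha and 19.5, 20.1 and 20.2 in Hb. That of COX8A was 122, 135 and 130 in Ha and 43.7, 52.1 and 51.7 in Hb. The larger COX8C share in Hb than in Ha thus went with a lower COX8A in FPKM.

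The testis isoform COX7B2 held 0.394, 0.26 and 0.344 in Ha, 9.04, 2.77 and 8.83 in Hb, 0.0965, 0.127 and 0.158 in La and 2.74, 1.87 and 2.68 in Lb, in percent of its pair. It stayed the minor form at all times, and its age difference was 4.42 points (exact permutation p 0.005, adjusted p 0.00667). NDUFA4L2 averaged 0.916% of its pair in Ha, 3.86% in Hb, 0.63% in La and 2.93% in Lb, with the same exact permutation p of 0.005. The isoforms known from muscle and lung went down. COX7A1 held 11, 11.8 and 11.5 in Ha, 0.274, 0.40 and 0.125 in Hb, 15, 14.4 and 14.6 in La and 0.603, 1.15 and 0.557 in Lb, in percent of COX7A1 and COX7A2, a difference of −12.5 points (exact permutation p 0.005, adjusted p 0.00667). COX4I2 held 8.41, 4.55 and 6.49 in Ha, 1.25, 2.21 and 0.643 in Hb, 12.1, 11 and 12.1 in La and 2.72, 3.93 and 2.68 in Lb, in percent of COX4I2 and COX4I1, a difference of −6.88 points with the same p. COX6A2 averaged 5.92% in Ha, 3.82% in Hb, 8.09% in La and 4.71% in Lb (exact permutation p 0.01, adjusted p 0.0114). Ha and Hb overlap in COX6A2, since Ha3 lies below Hb1.

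Between the breeds at 120 days, the differences in the restricted share were −22.5 points for COX6B2, −6.17 for COX8C and −4.45 for COX7B2 (Lb minus Hb), and 1.74 for COX4I2 and 0.503 for COX7A1. Without Lb2 they were −3.97 for COX8C and 0.314 for COX7A1. With shares of estimated counts in place of FPKM, the breed difference was −12.8 points for COX7B2, −4.17 for NDUFA4L2 and 1.96 for COX6A2, and the age differences were 14.3 for COX7B2, 9.32 for NDUFA4L2 and −5.42 for COX6A2. Hb and Lb do not overlap in COX6B2, COX8C, COX7B2, COX4I2 and COX7A1, and the exact permutation p of 0.1 is the smallest that 3 libraries against 3 allow. For COX7B2 the gap is narrow, with shares of 2.77% in Hb2 and 2.74% in Lb1. Its FPKM did overlap, at 0.81 in Hb2 and 1.01, 0.73 and 1.15 in Lb. COX6A2 (0.884 points, exact p 0.3) and NDUFA4L2 (−0.936 points, exact p 0.4) overlapped, and the sign of NDUFA4L2 rests on Hb1, without which the difference is 0.00682, while that of COX6A2 ran from 0.323 (without Hb2) to 1.48 (without Hb1). The testis isoforms thus held a larger share, and the muscle and lung isoforms a smaller share, in Hb than in Lb on average. In FPKM, however, COX8C itself was at 19.5, 20.1 and 20.2 in Hb and 23.3, 20.7 and 24.3 in Lb. Its partner COX8A was at 43.7, 52.1 and 51.7 in Hb and 63.3, 92 and 81.2 in Lb. The larger COX8C share in Hb thus went with a lower COX8A and not with a higher COX8C.

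**Figure D3:**
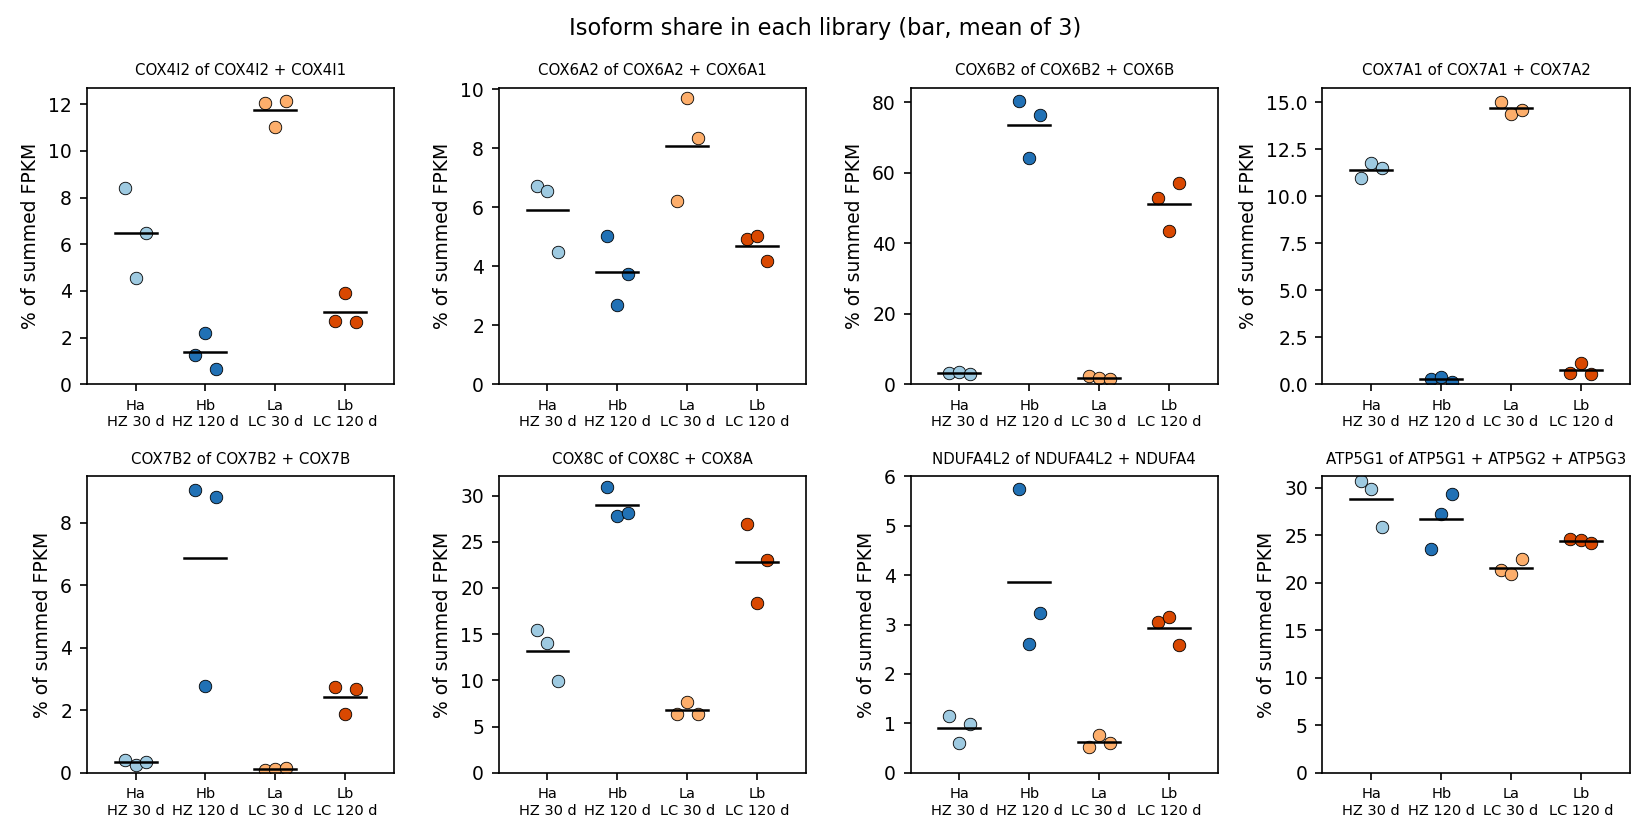
Share of 1 isoform in the summed FPKM of its set, in percent, for each library (points) and the mean of 3 (bars), in 8 isoform sets on linear axes from 0. COX6B2 averages 3.20% in Ha and 73.6% in Hb, and 1.88% in La and 51.1% in Lb, while COX7A1 averages 11.4% in Ha and 0.266% in Hb.

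Complex V, the ATP synthase, has 17 members by the rule, among which ATP5SL, an assembly factor of complex I, is counted. In Ha vs Hb 1 was called higher and 4 lower (23.5%, where 23.2% of all genes were), and ATP5SL is among those called lower. In La vs Lb 1 was called higher and 1 lower (5.88% each). The median log2 fold change of the 17 was −0.43 and −0.11, below 0 under every scaling tried (−0.76 and −0.28 without TMM, −0.83 and −0.42 on FPKM plus 1 in limma). Relative to all genes it stood at −0.41 and −0.12 (−0.55 and −0.26 in that limma fit). ATP5F1, subunit b of the stalk that holds the catalytic head still (NCBI gene 100154817, chromosome 4, 108896063 to 108907626), was at a CPM of 5.72, 4.62 and 4.81 in Ha, 25.6, 14.9 and 17.2 in Hb, 5.56, 5.63 and 3.85 in La and 19.6, 14.1 and 14.1 in Lb. It was the member of the complex called higher in both breeds, with no overlap between ages. Its rise was 3.81-fold in HZ (log2 1.93, SE 0.26, adjusted p 0.00046) and 3.21-fold in LC (log2 1.68, SE 0.23, adjusted p 0.000262).

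The rotating c ring is made of a single protein that ATP5G1, ATP5G2 and ATP5G3 all encode. ATP5G3 (NCBI gene 100513629, chromosome 15, 81091037 to 81094297) was at a CPM of 119, 121 and 153 in Ha, 43.5, 35.7 and 29.5 in Hb, 136, 119 and 125 in La and 58.8, 65.9 and 48.9 in Lb. Hb lay lowest, Lb next, and both groups at 30 days were higher than either. It fell 3.62-fold in HZ (log2 −1.86, SE 0.19, adjusted p 0.000122) and 2.16-fold in LC (log2 −1.11, SE 0.13, adjusted p 9e-05). ATP5G1 was at a CPM of 77, 72 and 75.5 in Ha, 20.5, 30 and 25.3 in Hb, 52, 49.3 and 51.2 in La and 30.4, 33.4 and 29 in Lb, and was called lower in HZ (−1.57, adjusted p 0.00013), with −0.70 (adjusted p 0.000602) in LC. ATP5G2 gave −0.79 (adjusted p 0.0139) in HZ, which becomes a call without Hb2 (−1.07), without TMM (−1.08), with upper-quartile factors (−1.10) and in limma (−1.36 and −1.38), and −0.60 (adjusted p 0.00332) in LC. All 3 were therefore lower at 120 days by the adjusted p in both breeds. Among the 3, ATP5G1 averaged 28.9% of the summed FPKM in Ha, 26.7% in Hb, 21.6% in La and 24.4% in Lb, and its age difference of 0.328 points had an exact permutation p of 0.825. The sign of that difference turns without Ha3 (−0.408) or Hb3 (−0.334). ATP5G3 went from 46% to 35.5% in HZ and from 49.5% to 41.5% in LC, a difference that was not tested.

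The catalytic head, F1, has 5 members. Its alpha subunit ATP5A1 was lower in HZ at −0.48 (adjusted p 0.00978), its beta subunit ATP5B at −0.34 (adjusted p 0.0418) and its central-stalk subunit ATP5C1 at −0.79 (adjusted p 0.00381). In LC they gave −0.14, 0.03 and −0.76, of which ATP5C1 passed (adjusted p 0.0002). ATP5D, another part of the central stalk, was called lower in HZ at −1.04 (adjusted p 0.00288), a call lost without Hb1 (−0.96), without Hb2 (−0.96) and with DESeq2 (−0.99), and was −0.65 (adjusted p 0.0185) in LC. ATP5E, the smallest subunit of the head and the member of the complex with the highest mean FPKM over all 12 libraries (at 30 days ATP5B was higher, and in Ha also ATP5A1), was at an FPKM of 376, 371 and 340.2 in Ha, 329, 451 and 396 in Hb, 308, 308 and 276 in La and 249.7, 272 and 379 in Lb. On the scaled counts it was higher in HZ by the adjusted p alone (0.60, adjusted p 0.00272) and was 0.32 (adjusted p 0.0742) in LC. It held 16.1% of the complex's summed FPKM in Ha and 29.1% in Hb.

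ATP5SL, since renamed as an assembly factor of complex I, was at a CPM of 52.4, 22.9 and 58.2 in Ha, 11, 28.3 and 12.8 in Hb, 50.3, 47.6 and 42.8 in La and 21, 32.3 and 25.9 in Lb. Ha2 lies below Hb2, so the groups overlap, and the call in HZ (−1.36, adjusted p 0.0314) is lost without Ha1 (−1.23), Ha3 (−1.12), Hb1 (−1.11) or Hb3 (−1.18), and with the replicate number as a block (−1.41, adjusted p 0.0723). In LC it was −0.81 (adjusted p 0.00274). Of the other genes of this group, ATP5J was lower in both breeds by the adjusted p alone (−0.50 and −0.35), ATP5I and ATP5J2 were higher in LC alone (0.74 and 0.70), and ATP5L, ATP5O and ATP5S passed in neither.

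The summed FPKM of each complex was taken in every library, with no test. Complex I summed to 1651, 1662 and 1597 in Ha, 1377, 1402 and 1336 in Hb, 1429, 1356 and 1302 in La and 1464, 1559 and 1543 in Lb, so Hb was the lower group in HZ and Lb the higher in LC. Complex II summed to 453, 417 and 403 in Ha, 172, 169.5 and 153 in Hb, 371, 304 and 322 in La and 204, 240.3 and 199 in Lb, lower at 120 days in every library. Complex IV summed to 669, 655 and 669.5 in Ha, 987, 984 and 1149.6 in Hb, 622, 616 and 549.6 in La and 972, 1017 and 1033 in Lb, higher at 120 days in every library. Without COX7A2, left out after seeing the data, its other 10 members summed to 512, 509.9 and 526 in Ha, 227, 296 and 286 in Hb, 505, 496 and 447 in La and 291, 353 and 368 in Lb, lower at 120 days in every library, with ratios of the means of 0.523 (Hb over Ha) and 0.699 (Lb over La). The ratios of the means were 0.838 (Hb over Ha) and 1.12 (Lb over La) for complex I, 0.388 and 0.645 for complex II, and 1.57 and 1.69 for complex IV. They were 0.309 and 0.593 for the complex III pair, 0.598 and 0.749 for complex V and 1.39 and 1.88 for the assembly factors. Over all 80 members they were 0.77 and 0.985. On summed CPM the complex I ratio in HZ turned above 1, to 1.13, and the ratio over all members in LC to 1.09.

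Of the 80 members, 2 were too low to be tested in any comparison: COX8H, with at most 2 estimated counts in a library, and NDUFAF8, an assembly partner of NDUFAF5, with at most 10.2. The assembled NDUFA1 was not tested in Ha vs La. The 78 members with an identifier lie on 18 chromosomes of the Sscrofa11.1 assembly, 12 of them on chromosome 2, and 70 of the 80 carry the deposited annotation to the KEGG pathway of oxidative phosphorylation. A further 5 genes described as like a subunit were at most at 0.76 FPKM in any library.

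At 30 days, the LC and HZ testis differed in few members by the fold threshold and in more by the adjusted p alone. Of the 77 members tested in Ha vs La, 1 was called higher in LC and 1 lower, where 3.6% of 15648 genes were called higher and 4.01% lower. By the adjusted p alone, 2 were higher and 17 lower, against 10.1% and 11.2% of all genes, and the median log2 fold change of the members was −0.21 beside 0.00 for all genes, with 16 members above 0 and 61 below. Under every scaling tried this median stayed below 0. The 17 were NDUFA2, NDUFA7, NDUFA8, NDUFAB1, NDUFB2, NDUFB7, NDUFS1, NDUFS3, NDUFS8 and NDUFV2 of complex I, NDUFAF3, SDHA, UQCR10, COX7A2, ATP5A1, ATP5G1 and ATP5H, with log2 fold changes from −1.13 (NDUFB7) to −0.30 (NDUFA8). Ha vs La shares its libraries with both age comparisons, so the values are given side by side and not as separate support.

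NDUFB7, an accessory subunit that faces the intermembrane space (NCBI gene 100737726, chromosome 2, 64718892 to 64723631), was at a CPM of 32.8, 32.5 and 28.7 in Ha, 38.5, 35.4 and 38.5 in Hb, 18.3, 13.3 and 11.3 in La and 28.9, 34.4 and 25.3 in Lb. La was the lowest group and did not overlap with Ha. It was called lower in LC, 2.2-fold (log2 −1.13, SE 0.18, adjusted p 0.00538), and without La3 the value is −0.98 and no longer a call. UQCR10 was the next lowest member, at −0.76 (adjusted p 0.00274), and ATP5G1 was at −0.56 (adjusted p 0.00355). COX6C, a subunit of complex IV, was the other member higher in LC, at 0.32 (adjusted p 0.0378). Among the genes named by description, COX8C was called lower in LC at −1.39 (SE 0.21, adjusted p 0.00502), and UQCRC1, UQCR11, UQCRQ and COX8A were lower by the adjusted p alone. COX6B2 gave −1.02 (adjusted p 0.0675) and COX7B2 −1.41 (adjusted p 0.0523), at low levels in both groups. COX6B2 becomes a call with all 12 libraries in a single edgeR fit (−1.01, adjusted p 0.0388), and COX7B2 without TMM (−1.45, adjusted p 0.0467) and with a filter of at least 10 counts in every library of a group (−1.41, adjusted p 0.0401).

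NDUFV3, a small accessory subunit near the site of NADH oxidation (NCBI gene 100620809, chromosome 13, 206111337 to 206123987), was the member called higher in LC. It was at a CPM of 23.2, 25.7 and 24.3 in Ha, 32.7, 28.5 and 33.7 in Hb, 53.4, 50.5 and 48.2 in La and 41.9, 47 and 39.7 in Lb. La was the highest group and Ha the lowest, with no overlap, and the fold change was 2.07 (log2 1.05, SE 0.09, adjusted p 0.000695). In the deposited FPKM it was at 22.6, 25.5 and 23.2 in Ha, 32.6, 29.7 and 34.1 in Hb, 32, 31.8 and 29.8 in La and 33.9, 34.6 and 33.9 in Lb, and limma on these values gave a log2 fold change of 0.38 or 0.39, short of a call. The estimated count per FPKM, corrected for the library and divided by the gene's mean, was 0.997, 0.979 and 1.01 in Ha, 0.647, 0.713 and 0.673 in Hb, 1.56, 1.5 and 1.55 in La and 0.92, 1.01 and 0.968 in Lb. This ratio was highest in La, lowest in Hb and alike within each group. It was 1.54-fold in La relative to Ha and 0.628-fold in Lb relative to La. The ratio was compared for the 65 members and 11 genes named by description with at least 100 counts in every library, and NDUFV3 was the 1 among them that moved by over 1.5-fold in either, where 0.0336% of 8918 genes did so in Ha vs La and 0.516% in La vs Lb. None of those 76 did so in Ha vs Hb or Hb vs Lb, against 0.561% and 0.0561% of genes. The lengths behind the FPKM are not in the tables used, and what moved the ratio was not tested.

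**Figure D4:**
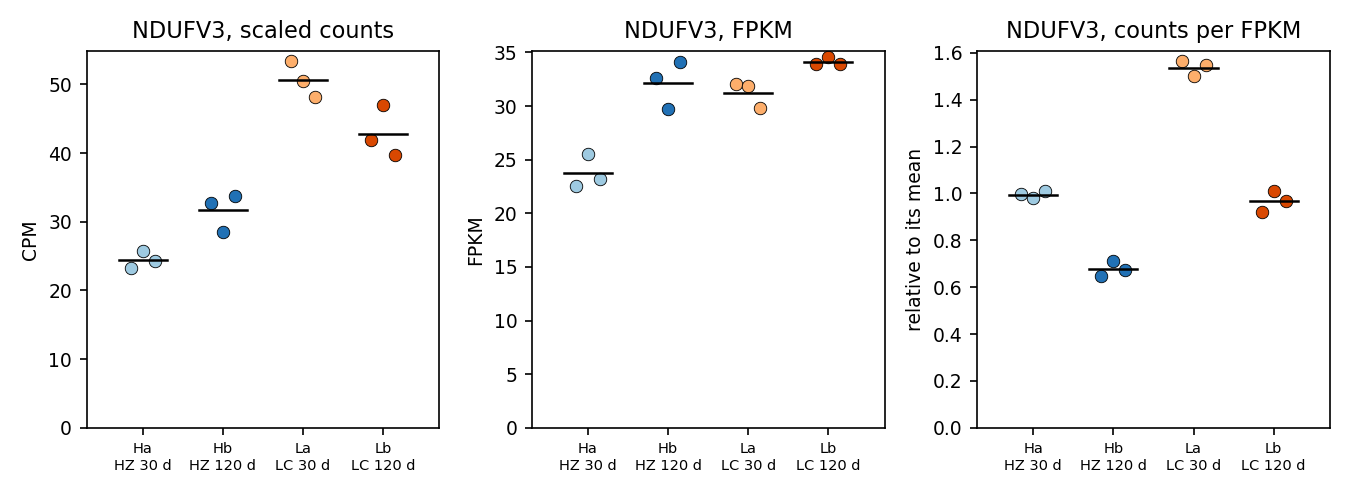
NDUFV3 in each library (points) and the mean of 3 (bars), as CPM, as deposited FPKM and as estimated count per FPKM relative to its mean, on linear axes from 0. The ratio in the right panel averages 0.995 in Ha, 0.678 in Hb, 1.54 in La and 0.966 in Lb.

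At 120 days, edgeR called none of the 78 members tested in Hb vs Lb, higher or lower, where 2.65% of 16311 genes were called higher in LC and 1.2% lower. The comparison shares its libraries with both age comparisons. None passed the adjusted p alone either, against 3.25% and 2.22% of genes, while 11 (14.1%) had an unadjusted p under 0.05, against 25.5% of genes. DESeq2 called 0 as well, with 5 higher and 2 lower by its adjusted p alone, against 7.94% and 7.03% of genes. The median of the members was 0.14 beside 0.00 for all genes, with 46 above 0 and 32 below, and moved to 0.21 without TMM and to 0.25 and 0.27 in limma. SDHC came nearest, at 0.80 (SE 0.19, adjusted p 0.0548), with every library of Lb above every library of Hb. ATP5G3 followed at 0.72 (adjusted p 0.066), NDUFB11 at 0.73 (adjusted p 0.079) and NDUFA10 at −0.85 (adjusted p 0.0857). COX7A1 had the largest positive value, 1.28 (SE 0.50, adjusted p 0.163), which becomes a call when all 12 libraries are fitted together (1.24), and leaving out Hb2 gives 1 member called higher, ATP5SL. Of the testis isoforms, COX6B2 gave −0.92 (adjusted p 0.0548), a call at −1.07 without Hb2, COX7B2 −0.75 (adjusted p 0.299) and COX8C 0.07 (adjusted p 0.809).

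Whether age acted differently in the breeds was tested over all 12 libraries as the change in LC minus the change in HZ. Of 78 members, 1 was called higher and 0 lower, where 3.51% and 1.62% of 17332 genes were, and by the adjusted p alone 4 were higher and 1 lower, against 4.56% and 2.68% of genes. For lower calls, edgeR and DESeq2 both gave 0, and 23 members (29.5%) had an unadjusted p under 0.05 in either direction, against 24.1% of genes. The median was 0.27 beside 0.02 for all genes, and moved to 0.42 without TMM and to 0.45 and 0.48 in limma. The called member was SDHC, at 1.03 (SE 0.27, adjusted p 0.0415): it fell less in LC than in HZ. That call holds in 4 of the 12 fits that leave out 1 library, and is lost without Ha1, Ha2, Hb2, Hb3, La2, La3, Lb1 or Lb2, where the value ran from 0.85 to 1.08, and in DESeq2 it was 0.98. By the adjusted p alone, ATP5G1 (0.85), NDUFA4 (0.62) and ATP5H (0.52) were higher and NDUFV3 (−0.62) lower, holding in 6, 2, 3 and 1 of those 12 fits. DESeq2 gave 9 higher (11.5%) and 1 lower (1.28%) by its adjusted p alone, against 7.14% and 6.42% of genes, these 4 among them. The NDUFV3 value rests on estimated counts, on which its log2 fold change was 0.38 in HZ and −0.23 in LC. In FPKM every library of Lb lay above every library of La for this gene, so its direction in LC turns. Among the genes named by description, COX8C passed at 1.41 (SE 0.26, adjusted p 0.0115) in 12 of 12 such fits, COX8A at 0.86 in 10 and UQCRC1 at 0.61 in 5.

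Other genes of the pathway were counted in lists, by calls in Ha vs Hb and then in La vs Lb, beside the 28.2% of all genes called higher and 23.2% lower in HZ and 27.5% and 20.1% in LC. Of the 13 subunits encoded in mitochondrial DNA, 5 were called lower and none higher in HZ and none in either direction in LC. By the adjusted p alone, 11 of them were lower in HZ and 5 in LC, and none higher, where 33% of all genes were lower in each breed. Their summed FPKM was 9023, 9554 and 9443 in Ha, 2259.7, 3725 and 3002 in Hb, 8592, 7141 and 6869.9 in La and 3554, 3750.1 and 5356 in Lb. Their sum was lower at 120 days in every library of both breeds. Of the 2 genes tested from the list of cytochrome c and cytochrome c1 (CYCS and CYC1, of 3 listed) and of the 2 ATP synthase genes outside the naming rule (of 4 listed), none was called in either breed, while by the adjusted p alone all 4 were lower in HZ and 1 of the ATP synthase pair was lower in LC. Of the 33 other assembly genes tested (of 41 listed), 5 (15.2%) were called higher and 6 (18.2%) lower in HZ, and 5 higher and none lower in LC. HIGD2A, a complex IV assembly factor, rose by 2.61 and 2.46 (log2), COA1 by 1.17 and 1.23, and ATPAF2, which assembles the F1 head, by 1.17 and 1.69.

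Of 5 carriers of the inner membrane (those of adenine nucleotides and the phosphate carrier SLC25A3), 1 was called higher and 2 lower in HZ and 1 higher in LC. The higher one was SLC25A31, the germ cell form of the ADP/ATP carrier, at 4.23 (adjusted p 3e-05) and 4.75 (adjusted p 2e-06). Of the 13 genes of the tricarboxylic acid cycle, 8 were called lower in HZ and 1 in LC, and none higher in either, with SUCLG2, a succinate-forming enzyme next to complex II in the cycle, at −1.93 and −1.35. Of 12 genes of mitochondrial transcription and its regulators, 2 were called higher and 1 lower in HZ and 4 higher and 1 lower in LC. TFAM, which binds mitochondrial DNA, averaged 11.8 ± 1.22 CPM in Ha, 149 ± 17.2 in Hb, 15 ± 4.1 in La and 70.4 ± 15 in Lb (mean ± SD of 3 libraries), with log2 fold changes of 3.65 and 2.24. ESRRG, a nuclear receptor, rose by 1.31 and 1.97, and PPARGC1B, a coactivator, was called lower at −1.46 and −1.79. Of 10 outer membrane and import genes tested (of 11 listed), 2 were called higher and 3 lower in HZ and 2 higher and 2 lower in LC: the pores VDAC3 (2.58 and 2.63) and VDAC2 (1.67 and 1.45) rose, and the pore VDAC1 (−2.37 and −1.60) and the chaperonin HSPD1 (−1.95 and −1.44) fell.

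Marker genes of the cell types of the testis moved with age alongside the members, and their part in the results was not tested; the gene given as the highest of a list is so by mean FPKM over all libraries. Spermatocyte markers summed to a CPM of 31.7, 35.6 and 19.9 in Ha, 783, 676 and 651 in Hb, 16.1, 14.1 and 12.7 in La and 502, 485 and 494 in Lb, with 8 of 8 called higher in both breeds and PIWIL1 the highest. Spermatid markers summed to a CPM of 4.99, 5.54 and 6.48 in Ha, 6522, 5787 and 8229 in Hb, 8.86, 7.73 and 4.41 in La and 4192, 3451 and 3153 in Lb, with 9 of 9 tested called higher in both breeds and PRM1 the highest. Both lists were low at 30 days and higher in each library of Hb than in any of Lb. Spermatogonial markers summed to a CPM of 369, 363 and 304 in Ha, 857, 820.0 and 817 in Hb, 223, 222 and 231 in La and 700.4, 638 and 657 in Lb, with 3 of 11 called higher and 6 lower in HZ and 4 higher and 5 lower in LC, and DDX4 the highest. Without DDX4 the means of this sum were 325 in Ha, 261 in Hb, 212 in La and 274 in Lb, so its rise in HZ rests on that gene.

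Sertoli cell markers summed to a CPM of 1269.5, 1209 and 1664 in Ha, 405, 578 and 467 in Hb, 2641, 3212 and 2914 in La and 604, 753 and 640.3 in Lb, with 4 of 8 called lower in each breed and INHA the highest. Leydig cell markers summed to a CPM of 10084, 9583 and 8748 in Ha, 4065, 331 and 268 in Hb, 13672, 9323 and 11208 in La and 4921, 7415 and 3085 in Lb, with 4 of 7 called lower in HZ and 5 in LC, and INSL3 the highest, with CYP17A1 above it at 30 days. Peritubular and stromal markers summed to a CPM of 4730.0, 4585 and 4508 in Ha, 607, 354 and 255 in Hb, 6906, 6179 and 7611 in La and 3083, 3007 and 2570.0 in Lb, with 8 of 10 called lower in HZ, 5 lower and 1 higher in LC, and COL3A1 the highest. These somatic lists were highest at 30 days, and for the Leydig list Hb1 stood far above Hb2 and Hb3. Endothelial markers summed to a CPM of 669, 681 and 616 in Ha, 173, 305 and 186 in Hb, 795, 627 and 756 in La and 316, 497 and 278 in Lb, with 5 of 5 called lower in HZ and 3 in LC, and VWF the highest. Macrophage markers summed to a CPM of 124, 101 and 106 in Ha, 17.4, 20.1 and 10.7 in Hb, 122, 107 and 115 in La and 21.3, 37.8 and 35.9 in Lb, with 5 of 5 called lower in HZ and 4 in LC, and CSF1R the highest. Both were lower at 120 days in every library of both breeds.

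Striated muscle markers summed to a CPM of 5.06, 10.4 and 14.4 in Ha, 11.6, 5.2 and 14.2 in Hb, 8.61, 10.3 and 10.9 in La and 35.2, 44.3 and 33 in Lb, with 1 of 5 tested (of 9 listed) called higher and 2 lower in HZ and 1 of 4 higher and 1 lower in LC, and ACTA1 the highest. Without ACTA1 the means of the sum were 9.94 in Ha, 1.32 in Hb, 9.89 in La and 2.57 in Lb. TNNT3 was at 0 in Hb and Lb and MYH1 at 0 in Hb. Erythroid markers summed to a CPM of 106, 142 and 45.6 in Ha, 5.39, 13.6 and 24.1 in Hb, 69.9, 23.9 and 24.2 in La and 10.9, 15.3 and 32.5 in Lb, with 2 of 2 called lower in HZ and none in LC, and HBB the highest. Adrenal-like markers summed to a CPM of 25.9, 14.1 and 25.7 in Ha, 5.97, 1.07 and 3.82 in Hb, 35.3, 32.2 and 31.5 in La and 8.6, 11.2 and 5.18 in Lb, with the 1 gene tested called lower in each breed, and MRAP the highest.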

How the data were processed

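The estimated counts per gene were made by the authors and used as deposited, rounded to whole numbers for the count-based tests, since 68.4% of the values were whole. The FPKM values were also computed by the authors and used as deposited. According to the submitters' processing notes, reads were trimmed with fastp 0.18.0, ribosomal reads were removed with Bowtie2 2.2.8, and the rest were aligned to the pig genome with HISAT2 2.1.0 and assembled with StringTie 1.3.4, with no statement found of how counting was done. Each comparison was fitted on its 6 libraries in edgeR 4.0.16 (R 4.3.3) with filterByExpr at a minimum count of 10, TMM factors and the quasi-likelihood test, and every adjusted p of a gene in the report comes from it unless another tool is named. The change with age was compared between breeds in a single fit of all 12 libraries. SE is the absolute log2 fold change over the square root of the F statistic. CPM uses TMM factors over all 12 libraries. Alternatives were DESeq2 1.42.0, edgeR without TMM or with upper-quartile factors, other count filters, limma 3.58.1 on log2 FPKM plus 1 or 0.1, a joint fit, the replicate number as a block, and leaving out each library in turn. Tables and figures were made in Python 3.11.15 with numpy 2.4.6, pandas 2.3.3 and matplotlib 3.10.9. The code was tested on simulated data. Members, marker lists and pathway lists were chosen with earlier results of these data known. Genes were named where they were called, where a setting changed their call, or where they complete a complex. Positions are those of RefSeq on Sscrofa11.1. Sequences, noncoding RNAs and reads were not used here.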

Additional observations from a re-analysis of the deposited data

Results flagged for a closer look

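The following values were picked out because the change with age differed between the breeds, that is, the interaction (change in LC minus change in HZ, log2, edgeR over all 12 libraries) had an adjusted p under 0.05. Among the subunit genes found by the naming rule these were ATP5H at 0.515 (adjusted p 0.0382), SDHC at 1.03 (adjusted p 0.0415), NDUFA4 at 0.6213 (adjusted p 0.0448), ATP5G1 at 0.8486 (adjusted p 0.0252) and NDUFV3 at -0.6165 (adjusted p 0.0454). Among those named only by description they were UQCRC1 at 0.6086 (adjusted p 0.0401), COX8A at 0.8562 (adjusted p 0.0237) and COX8C at 1.414 (adjusted p 0.0115). The NDUFV3 value rests on estimated counts, on which its log2 fold change in LC was -0.227. In FPKM every library of Lb lay above every library of La for this gene.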

How the results depend on the processing

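The counts of members called, the isoform shares and the summed levels were recomputed under other settings, and the cause of a change was not tested unless stated. In limma on FPKM plus 1 or plus 0.1, 23 members were called lower in Ha vs Hb in both fits and 10 higher in La vs Lb in both, with 10 lower (plus 1) and 12 lower (plus 0.1), and 0 higher in Ha vs La. With upper-quartile factors 10 were called lower in La vs Lb. With the 16 genes named by description, an alternative chosen after seeing the data, 2 were called lower in Ha vs La and 2 had a higher interaction. With all 12 libraries in a single fit 1 was called higher in Hb vs Lb. The interaction had 0 called higher in DESeq2, 2 without TMM and 3 in each limma fit. Leaving out each library in turn gave 0 to 1 called lower in Ha vs La (0 without La3), 0 to 1 called higher in Hb vs Lb (1 without Hb2) and 0 to 2 for the interaction. The age difference in the ATP5G1 share turned to -0.679 points with shares of estimated counts, and ran from -0.408 to 1.12 when a library was left out. The NDUFA4L2 share in Lb minus Hb ran from -1.56 to 0.00682, the last without Hb1, and was -4.17 with shares of estimated counts. With summed CPM in place of FPKM the log2 ratios of the summed levels (Hb over Ha, then Lb over La) were 0.18 and 0.37 for complex I, -0.88 and -0.29 for complex II, -1.12 and -0.40 for the complex III pair, 1.10 and 1.03 for complex IV, -0.37 and -0.15 for complex V and -0.10 and 0.12 for all members, and 0.66 for the assembly factors in HZ. This changes both the length correction and the scaling of libraries, and the parts were not separated. For the 6 complex III genes named by description, the plain ratios of summed CPM were 0.969 in HZ and 1.24 in LC. Leaving out COX7A2, chosen after seeing the data, reversed the log2 ratio of complex IV to -0.94 in HZ and -0.52 in LC. The correlation of residuals between libraries of the same replicate number ran from -0.022 to 0.053, each number matching its own best in Ha vs Hb alone, and with the number as a block 12 were called higher and 12 lower in Ha vs Hb and 19 and 5 in La vs Lb. For the named genes, called or not, leaving out a library left the status (call or no call) as it was in 759 cases, gave a call in 4 and ended it in 29, and other settings left it in 1095, gave it in 36 and ended it in 47, and no sign with a call was reversed.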

Other observations

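The spread between libraries of a group, as the mean squared difference between 2 libraries over that expected from counting alone, was lowest for La2 and La3 (17.79) and highest for Hb1 and Hb2 (95.36). Libraries were scaled here by their total counts and not by TMM, so differences in composition and depth also enter this value. In Hb the Leydig cell sum was 4065 CPM in Hb1 and 331 and 268 in the other libraries.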
